A study of Bos taurus with 2 samples.

Results

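Isolated pairs of CpG sites that lie directly side by side were described in the sperm methylomes of the monozygotic twin bulls Bull1 and Bull2. A member was a pair of consecutive listed CpGs on the 29 autosomes exactly 2 bp apart, with no other listed CpG within 50 bp of either and at least 5 reads at both CpGs in both libraries. Of the 575364 autosomal pairs 2 bp apart, 36633 (6.37%) were isolated in this way and 34600 of these (94.5%) passed the coverage minimum, while 2033 did not. The members held 0.266% of the 26041302 listed autosomal CpGs. They were compared with isolated pairs 3 to 50 bp apart chosen by the same rule, of which 2050941 of 2161597 (94.9%) passed the coverage minimum. Isolation from other listed CpGs, and not an annotation of CpG islands, kept the members apart from CpG-dense sequence. The median member had 3 other listed CpGs within 200 bp, and 5.32% had 10 or more. Each member is a CG directly followed by another CG, which reads the same on both strands, so first and second refer only to the order along the listed coordinate.

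A CpG carries methylation as a methyl group on its cytosine, usually on both strands. DNMT3 enzymes set new methylation in developing male germ cells, and DNMT1 copies it to the new strand each time a cell divides. Most CpGs of the sperm genome are methylated, while CpG-dense stretches such as islands at gene starts usually stay unmethylated, and neighbouring CpGs often share a state. In whole-genome bisulfite sequencing (WGBS), bisulfite converts unmethylated cytosine to uracil, so that the share of reads still showing cytosine gives the methylation level of a site.

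Both samples were sperm of Holstein bulls, 1 WGBS library from Bull1 and 1 from Bull2, and the study set the twins side by side because their semen quality diverged while their genotype was shared. Coverage over the 27203217 listed CpGs averaged 20.01 reads in Bull1 and 18.35 in Bull2, and at the first CpG of the members it averaged 21.6 and 18.8. The study reported the reverse order, with more mapped reads and a higher average read depth for Bull2. The reason for this mismatch was not tested. There was 1 twin pair with 1 library per bull and thus no replicate spread, and every difference between Bull1 and Bull2 below is one between libraries. Intervals are at 95% and cover the spread over pairs or the counting of reads, and pairs are loci and not replicates.

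The members were mostly methylated in both libraries. Their mean level was 83.9% in Bull1 (SD 19.6 points over pairs, median 90.5%, quartiles 82.5 and 95%) and 79.9% in Bull2 (SD 19.6 points, median 85.7%, quartiles 76.0 and 91.7%). Both CpGs were at 80% or above in 73.4% of members in Bull1 and 60.6% in Bull2. The mean levels lay close to those of pairs 3 to 50 bp apart, 84.2% and 80.1%. The difference was -0.203 points in Bull1 (-0.412 to 0.0052) and -0.1998 in Bull2 (-0.407 to 0.0077), and both intervals included 0. The sign of this difference depended on the setting. It was 0.127 and 0.122 points with at least 10 reads at every CpG, and 0.647 and 0.725 points against pairs 3 bp apart. At the coverage minimum, the 864 members whose smallest coverage was 5 reads had mean levels of 77.9% and 74.7%, and the 624 isolated pairs left out with a smallest coverage of 4 had 76.1% and 71.7%.

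**Figure D1:**
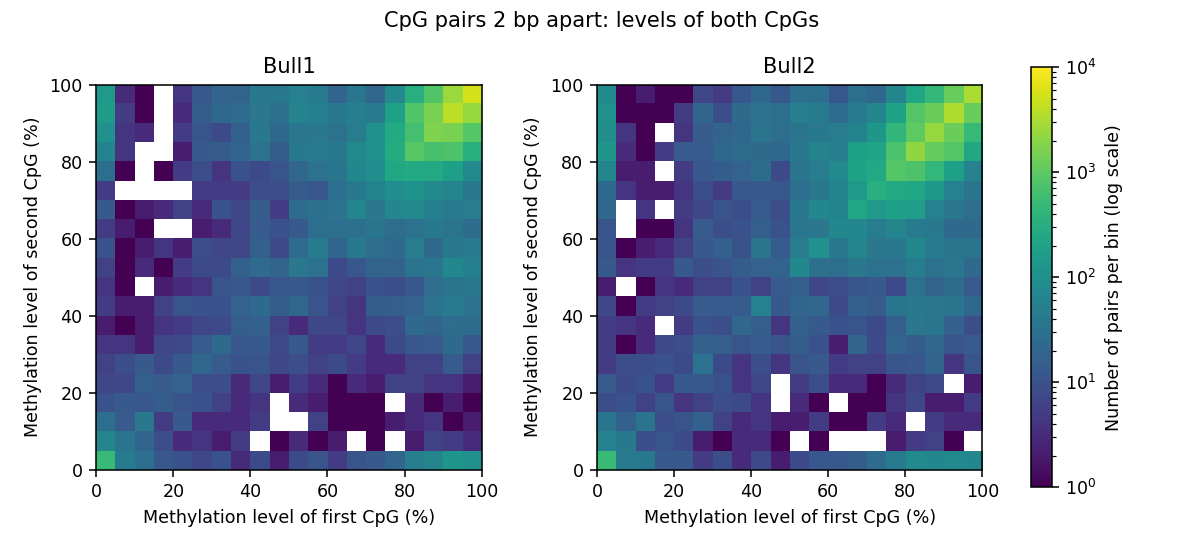
Number of members (colour, log scale) by the methylation level of the first CpG (horizontal axis, %) and the second CpG (vertical axis, %), in Bull1 (left) and Bull2 (right), with white for empty bins. Most members lie near the upper right corner, a small cluster lies at the lower left, and thin bands along the left and lower edges hold pairs with 1 CpG unmethylated and the other methylated.

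Unmethylated pairs, with both CpGs at 20% or below, were more frequent at 2 bp than at longer distances. They numbered 886 in Bull1 (2.56%) and 900 in Bull2 (2.60%), against 1.64% and 1.67% of pairs 3 to 50 bp apart. The difference was 0.925 points in Bull1 (Newcombe interval 0.763 to 1.10) and 0.930 in Bull2 (0.767 to 1.10). The excess was smaller under stricter limits, at 0.345 points (0.169 to 0.549) and 0.355 (0.176 to 0.564) with an isolation of 100 bp, and at 0.275 (0.0723 to 0.512) and 0.218 (0.0181 to 0.451) with at least 20 reads at every CpG. The share at 2 bp was the highest of the 49 distances from 2 to 50 bp in both libraries, above the 2.18% and 2.25% at 10 bp that came next. It was higher than in the comparison pairs on 27 of 29 autosomes in Bull1 and on 28 in Bull2. Pairs without any methylated read made up 1.22% and 1.36% of members, against 0.627% and 0.701% of comparison pairs. At the other end, every read was methylated in 8.62% and 6.85% of members, against 5.28% and 4.13%. Coverage was equal at both CpGs in 50.8% and 54.9% of members and in 18.5% and 20.5% of comparison pairs, and the part of reads that cover both CpGs in these shares was not tested.

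The surroundings of the members moved with this share. Members had a mean of 3.76 other listed CpGs within 200 bp, against 3.17 for comparison pairs, and the median distance to the nearest other CpG was 82 bp against 89 bp. The unmethylated share among members in Bull1 was 0.814% with no other CpG within 200 bp (exact interval 0.527 to 1.20%), 0.887% with 1 to 3, 2.33% with 4 to 6, 4.89% with 7 to 9 and 16.9% with 10 or more (15.2 to 18.6%). The shares in Bull2 followed the same order, from 0.879% to 16.8%. Comparison pairs with 10 or more other CpGs within 200 bp were unmethylated in 13.9% and 14.0% of cases, with intervals below those of the members. With 4 to 6 other CpGs the comparison shares were 1.66% and 1.70%, again with intervals below those of the members. In the other 3 classes the member share was also the higher one in both libraries, but the intervals overlapped.

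Unmethylated members mostly lay beside unmethylated CpGs. Among the 842 of Bull1 with a covered CpG within 500 bp, the nearest one was at 20% or below in 676 (80.3%). In Bull2 this held for 699 of 850 (82.2%). The shares for unmethylated comparison pairs were 74.6% and 74.0%. Over all members, the level of the pair and of that nearest CpG correlated with a Pearson's r of 0.592 in Bull1 and 0.554 in Bull2 (n = 33687 pairs, same library), and with 0.558 and 0.554 when the neighbour was read in the other library. For comparison pairs the r within a library was 0.531 and 0.496. The mean absolute difference between the pair and that CpG went the other way. It was 11.7 and 13.0 points in members, against 11.5 and 12.8 in comparison pairs. Pair levels also spread more widely in members, with an SD of 19.6 points in both libraries against 17.7 and 17.6. The part of this spread in r was not tested.

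**Figure D2:**
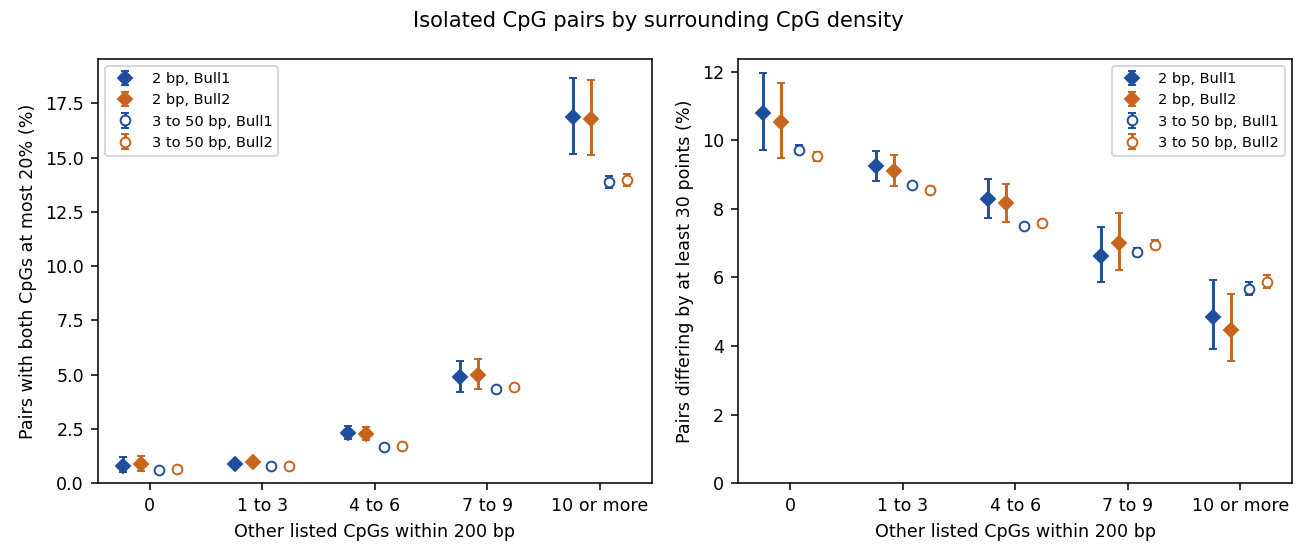
Share of isolated pairs (%) with both CpGs at 20% or below (left) and with levels at least 30 points apart (right), by the number of other listed CpGs within 200 bp. Filled diamonds are pairs 2 bp apart, open circles pairs 3 to 50 bp apart, blue Bull1, orange Bull2, and bars exact 95% intervals over pairs. The unmethylated share of the members climbs from 0.814% to 16.9% in Bull1 across the classes, while the share at least 30 points apart falls from 10.8% to 4.84%.

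The levels of the CpGs of a member were then compared within the pair. The mean absolute difference was 10.1 points in Bull1 and 9.97 in Bull2, against 10.8 and 11.2 for pairs 3 to 50 bp apart, a difference of -0.768 points (-0.954 to -0.582) and -1.22 points (-1.40 to -1.04). In Bull1 it was -0.430 points with an isolation of 100 bp, and in Bull2 -0.706 with at least 20 reads at every CpG. This closeness was not graded down to the shortest distance. Pairs 5 bp apart had the smallest mean difference, 9.58 points in Bull1 and 9.59 in Bull2, and against pairs 3 to 10 bp apart the members were further apart by 0.315 points in Bull1 (0.124 to 0.505) and by 0.142 in Bull2, where the interval of -0.0425 to 0.327 included 0. The median difference was 4.76 and 4.83 points in members, against 5.85 and 6.50 in comparison pairs. Levels were exactly equal in 22.0% and 25.2% of members and in 9.68% and 9.84% of comparison pairs. Reads that cover both CpGs are more frequent at short distance, so the sampling error of a difference is smaller there, and its part in these values was not tested.

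The mean differences separated by the level of the pair, when members were sorted by their level in the other library. Among pairs at 80% or above, members differed by 4.97 points in Bull1 and 5.21 in Bull2, against 6.17 and 7.02 for comparison pairs. Among pairs at 20% or below, members differed by 5.76 and 5.77 points, against 8.66 and 8.13. Among pairs between 20 and 80% the order turned, with 22.2 and 30.8 points in members against 21.1 and 29.3, a difference of 1.10 points (0.565 to 1.63) in Bull1 and 1.49 (0.778 to 2.20) in Bull2. Pairs with a large difference shared by both libraries fall into the class between 20 and 80% by their mean level, so the turn there is not independent of the shared differences described below.

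Large differences within a pair were compared next, over all members and by class. A difference of at least 30 points was found in 2976 members in Bull1 (8.601%) and 2941 in Bull2 (8.50%), against 8.26% and 8.22% of pairs 3 to 50 bp apart. Among the 49 distances the member share ranked 21 from the highest in Bull1 and 22 in Bull2. The highest shares, 9.99% and 9.92%, were at 39 bp. The excess over pairs 3 to 50 bp apart was 0.336 points in Bull1 (0.0429 to 0.639) and 0.280 in Bull2, with an interval of -0.0120 to 0.581 that included 0. Against pairs 3 to 10 bp apart it was 1.11 points (0.804 to 1.42) and 1.19 (0.886 to 1.49). At 50 points or more the excess over pairs 3 to 50 bp apart was 0.576 points (0.356 to 0.807) and 0.585 (0.370 to 0.810). By level in the other library, most of these pairs lay between 20 and 80%. There 27.3% of members in Bull1 and 41.9% in Bull2 were at least 30 points apart, against 24.7% and 38.7% of pairs 3 to 50 bp apart. The excess in this class was 2.54 points (1.68 to 3.42) and 3.14 (1.93 to 4.36). Pairs with a large difference shared by both libraries fall into this class by their mean level. Neither their place there nor this excess is therefore independent of the shared differences described below. The ends of the scale were not tested. Among pairs at 20% or below, 3.47% of members in Bull1 and 3.22% in Bull2 were at least 30 points apart, against 6.19% and 5.27% of pairs 3 to 50 bp apart and 4.55% and 4.38% of pairs 3 to 10 bp apart. Among pairs at 80% or above the member shares were 0.713% and 0.809%, below the 0.746% and 1.14% at 3 to 50 bp but above the 0.602% and 0.769% at 3 to 10 bp. By the number of other CpGs within 200 bp, the member share was the higher one in both libraries with 0, with 1 to 3 and with 4 to 6. The intervals overlapped with 0 in both libraries and with 4 to 6 in Bull2. With 7 to 9 the member share was lower in Bull1, 6.63% against 6.74%, and higher in Bull2, 7.01% against 6.96%, with overlapping intervals. With 1 to 3 it was 9.24% (exact interval 8.81 to 9.70%) and 9.11% (8.68 to 9.56%), against 8.69% (8.63 to 8.74%) and 8.56% (8.50 to 8.61%). With 10 or more the order turned, and the shares were 4.84% (exact interval 3.90 to 5.92%) and 4.46% (3.56 to 5.50%), against 5.67% (5.48 to 5.86%) and 5.88% (5.69 to 6.07%), so that only the intervals of Bull2 did not overlap.

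**Figure D3:**
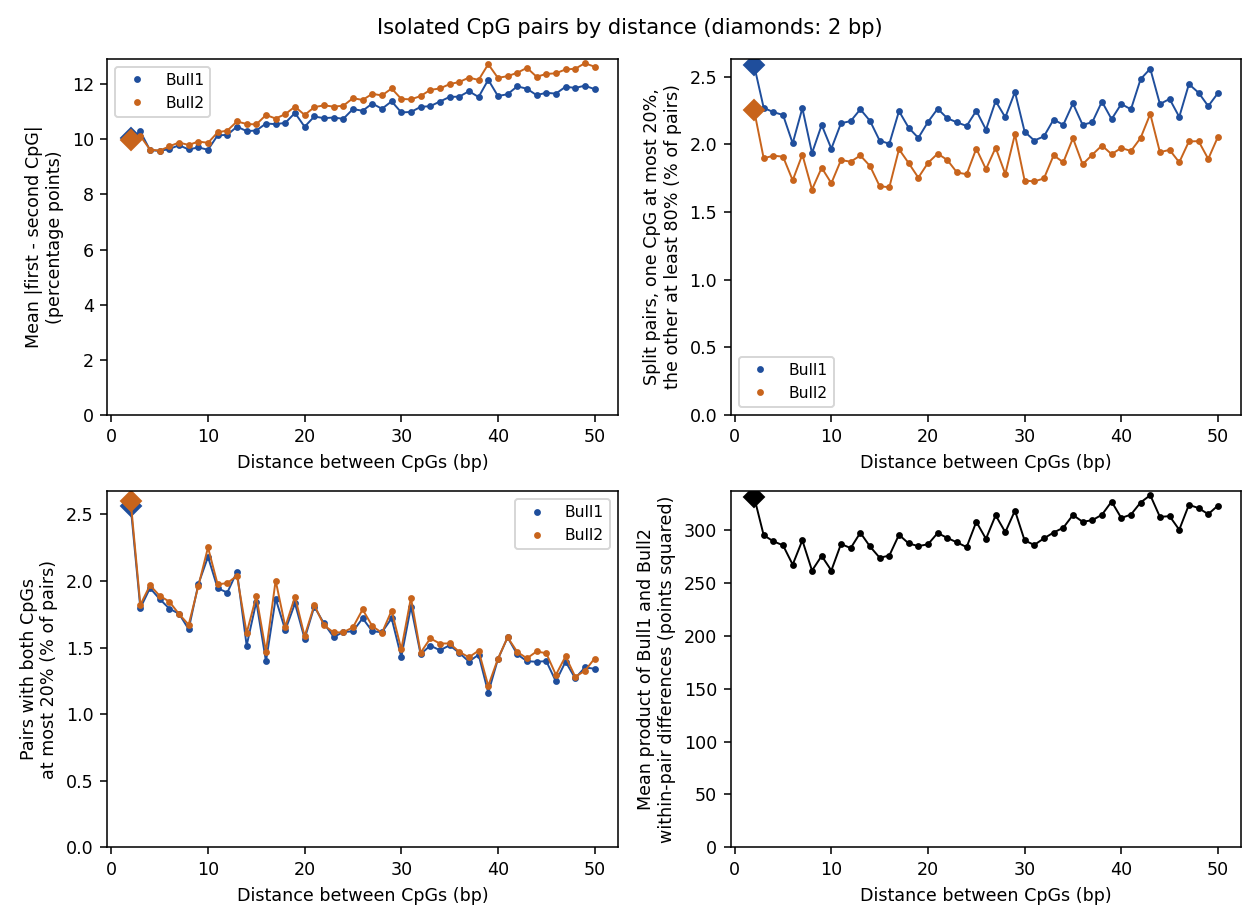
Isolated pairs by the distance between their CpGs (horizontal axis, bp), with members as diamonds at 2 bp, for Bull1 (blue) and Bull2 (orange). The panels give the mean absolute difference within the pair (points), the share of pairs with 1 CpG at most 20% and the other at least 80% (%), the share with both at most 20% (%), and the mean product of the differences of both libraries (squared points, black). The mean difference at 2 bp, 10.1 and 9.97 points, is near the lower end, while the share in the lower left panel is highest at 2 bp and that in the upper right panel is about level with 43 bp.

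The differences within members were largely shared by both libraries. The mean product of the difference in Bull1 and the difference in Bull2 was used as the measure, because the libraries have no reads in common and read sampling adds nothing to it on average. It was 332 squared points for members, equal to a shared difference of 18.2 points, and 295 squared points, or 17.2 points, for pairs 3 to 50 bp apart. The difference of 36.6 squared points had an interval of 22.4 to 50.8, and with an isolation of 100 bp it was 62.9 (37.5 to 88.4). The product was higher at 2 bp on 25 of 29 autosomes and was exceeded at 1 of the other 48 distances, 43 bp, with 333 squared points. Of the members at least 30 points apart, 2389 were so in both libraries, 80.3% of those of Bull1 and 81.2% of those of Bull2, against 74.7% and 75.1% at 3 to 50 bp and 76.9% and 78.8% at 3 to 10 bp. The same CpG was higher in 2384 of the 2389 members, or 99.8%, which was also the share at 3 to 50 bp. The difference itself correlated between libraries with an r of 0.836 across the 34600 members, against 0.774 across comparison pairs. The member r was the highest of all 49 distances, followed by 0.818 at 4 bp. Unlike the product, this r and the shares found in both libraries depend on read sampling in each library. Reads that cover both CpGs are more frequent at short distance, and their part in these values was not tested. The level of the first CpG in Bull1 and of the second CpG in Bull2, which share neither reads nor library, correlated with an r of 0.514 in members and 0.471 in comparison pairs.

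**Figure D4:**
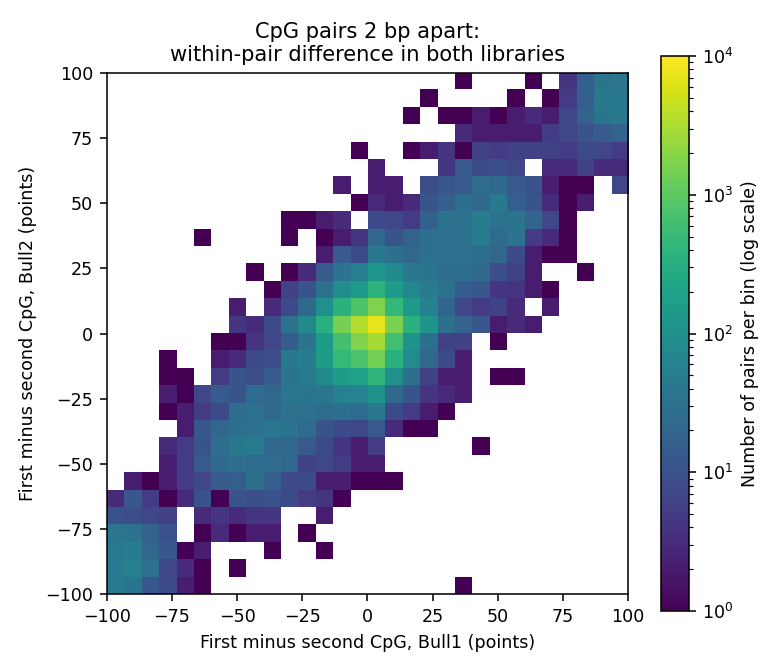
Number of members (colour, log scale) by the level of the first minus the second CpG in Bull1 (horizontal axis, points) and in Bull2 (vertical axis, points), with white for empty bins. Most members lie at the centre, and those at least 30 points apart lie along the diagonal, with clusters at both ends and further ones between the ends and the centre.

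A few pairs carried most of this shared difference, in members and in comparison pairs alike. In this and the next paragraph the classes were drawn after the values were seen and are given as a description. Split members, with 1 CpG at 20% or below and the other at 80% or above, numbered 895 in Bull1 (2.59%) and 780 in Bull2 (2.25%), numerically the highest share of the 49 distances in both libraries but close to the 2.56% and 2.22% at 43 bp. In both libraries at once 683 members were split (1.97%, exact interval 1.83 to 2.13%), against 1.60% of comparison pairs (1.59 to 1.62%). A further 831 members (2.40%, 2.24 to 2.57%) had 1 CpG at 35 to 65% and the other at 80% or above in both libraries, against 2.13% of comparison pairs (2.11 to 2.15%). Within a single library this class held 4.91% of members in Bull1 and 4.49% in Bull2, against 4.77% and 4.83% of comparison pairs. Members were thus the lower ones in Bull2. Shares found in both libraries depend on read sampling, and its part here was not tested. Together the classes found in both libraries were 4.38% of members and held 61.4% of the summed product, 48.6% in split members alone. Among pairs 3 to 50 bp apart the same classes were 3.73% of pairs and held 56.4%, with 44.1% in split pairs alone.

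Pairs found split in one library were read in the other. Those of Bull2 had a mean of 3.35% at the low CpG (SD 12.1 points, n = 780 pairs) and 90.6% at the high CpG (SD 8.07) in Bull1, and 779 of 780 kept the order. Those of Bull1 had 1.64% and 85.9% in Bull2, with 894 of 895 in the same order. The low CpG had no methylated read in the other library in 86.0% and 89.3% of these pairs. Split pairs 3 to 50 bp apart kept their state to much the same extent, with 3.19% and 2.26% at the low CpG, no methylated read there in 85.2% and 87.3%, and the same order in 38311 of 38369 and 44839 of 44876. Members with 1 CpG at 35 to 65% in Bull2 and the other at 80% or above had 56.7% (SD 18.8 points, n = 1552 pairs) and 89.1% in Bull1, and those of Bull1 had 49.9% (SD 17.5, n = 1700 pairs) and 84.7% in Bull2. Pairs 3 to 50 bp apart in this class had 61.5% and 88.4% in Bull1, and 52.2% and 83.8% in Bull2. Members fell into the class again in 53.5% and 48.9% of cases, against 44.1% and 44.6%. The part of read sampling in this was not tested. The nearest other CpG of split members was at 81.5% in Bull1 and 78.5% in Bull2 on average, against 83.2% and 79.4% for the nearest CpG of all members. A base change at a CpG that both twins carry and a CpG left unmethylated in both cannot be told apart in these counts.

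The order of the CpGs along the coordinate was looked at after the values were seen, and is given as a description. Split members were not even in this order. Of the 683 split in both libraries, the first CpG was the low one in 382 (55.9%, exact interval 52.1 to 59.7%) and the second in 301, while in comparison pairs the first was low in 49.97% (49.4 to 50.5%). Across all members the mean of the first minus the second CpG was -0.365 points in Bull1 (-0.578 to -0.153) and -0.260 in Bull2 (-0.467 to -0.0525), so the first was lower, and no other distance had a mean as low in either library. The mean was below 0 on 20 of 29 autosomes in Bull1 and on 21 in Bull2. With at least 20 reads at every CpG it was -0.258 in Bull2 with an interval that included 0. Members read the same on both strands, and whether strands were summed is not stated. The part of strand handling and of read mapping in this order was not tested.

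Individual pairs were named from the 10867 members with at least 20 reads at both CpGs in both libraries and coverage not above the 99th percentile of autosomal sites. Positions are those of the files on UMD3.1, and genes or other annotations at them were not used here. Of these members, 31 had no methylated read and 11 no unmethylated read in either library. By the smallest coverage among its CpGs, the deepest pair without a methylated read lay on chromosome 10 at 53712064 and 53712066, with 0 of 47 and 0 of 45 reads methylated in Bull1 and 0 of 35 and 0 of 36 in Bull2. The nearest other CpG, 63 bp away, was at 0% in both libraries. The next such pair, on chromosome 12 at 24625375 and 24625377, had 0 of 34 and 0 of 32 reads in Bull1 and 0 of 31 at both CpGs in Bull2. Here the nearest CpG, 53 bp away, was at 100% in Bull1 and 90.6% in Bull2. The pair on chromosome 1 at 53648346 and 53648348 was likewise without a methylated read among 29 to 31 reads per CpG, beside a CpG at 90% and 100%.

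Of the 11 pairs without an unmethylated read, 3 were named, ranked by the smallest coverage among their CpGs in either library. The first was on chromosome 3 at 24827226 and 24827228, with 27 of 27 reads methylated at both CpGs in Bull1, and 24 of 24 and 25 of 25 in Bull2. The other named ones lay on chromosome 17 at 54270564 and chromosome 1 at 94513522, with 23 to 30 reads per CpG. An exact interval at such a pair reached down to between 85.2% and 88.4% at a CpG, so the depth does not separate full from nearly full methylation.

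The 5 pairs with the largest shared difference all had no methylated read at the first CpG in either library. Here too, a base change that both twins carry and an unmethylated CpG cannot be told apart. On chromosome 2 at 80420223 and 80420225, the first CpG had 0 of 31 reads methylated in Bull1 and 0 of 21 in Bull2, and the second 31 of 31 and 20 of 20. On chromosome 26 at 46019934 and 46019936, the first had 0 of 35 and 0 of 29 and the second 34 of 35 and 29 of 29. The other pairs, on chromosome 2 at 51917950, chromosome 3 at 57099497 and chromosome 21 at 36701397, had 0 methylated reads at the first CpG in both libraries and 96% or more at the second. In each of the 5 the nearest other CpG, 75 to 190 bp away, was at a level between 82.4% and 100% in both libraries.

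**Figure D5:**
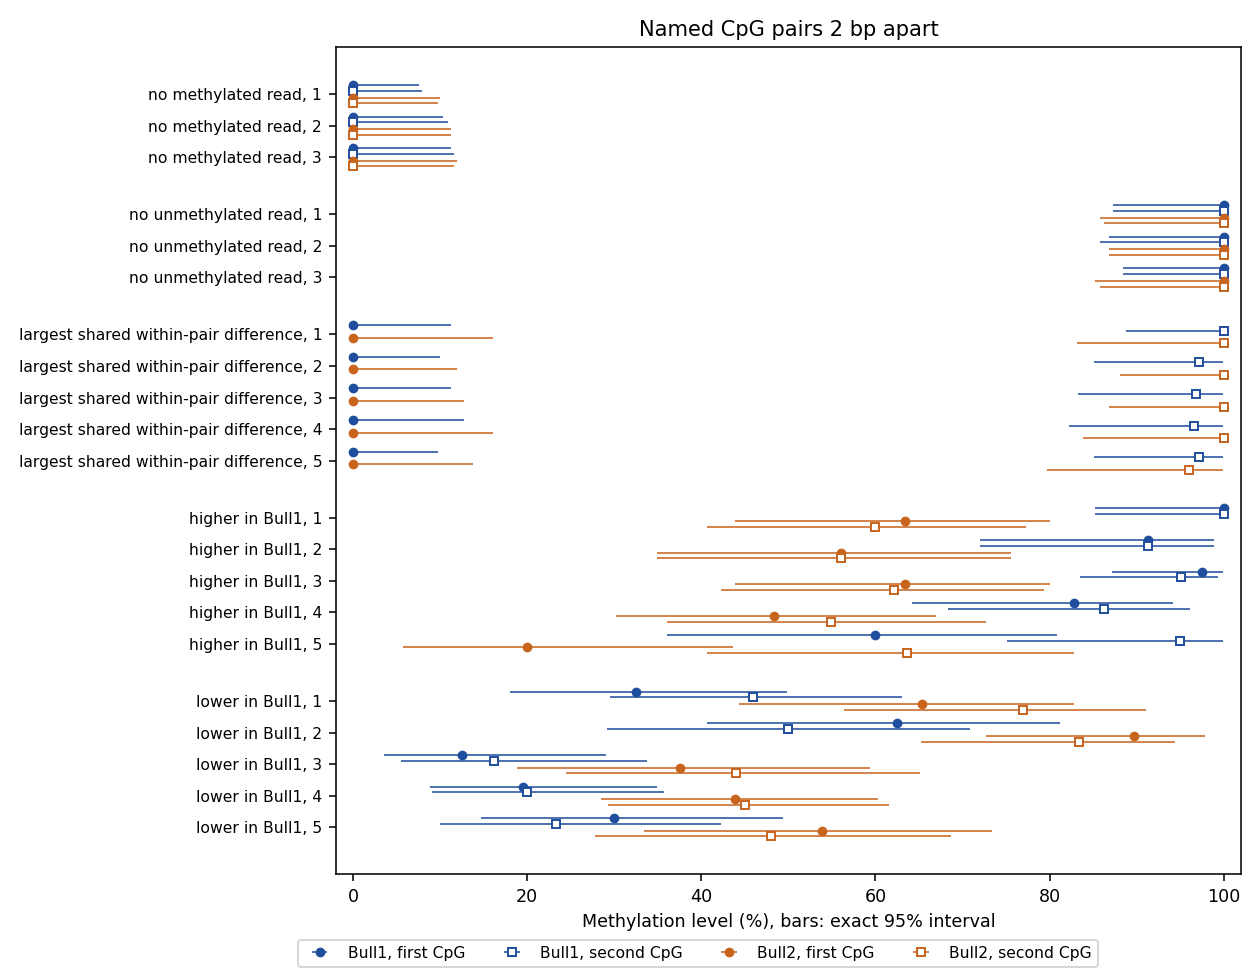
Methylation level (horizontal axis, %) of the 21 named pairs (vertical axis, by the rule that named them and their order), with circles for the first and squares for the second CpG, blue for Bull1, orange for Bull2, and bars for exact 95% intervals from the reads. In the pairs chosen for the largest shared difference the circles lie at 0% and the squares at 96% or above in both libraries. In the pairs chosen for a difference between the bulls both CpGs are shifted the same way, which the rule that named them requires.

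Finally, the members were compared between the bulls. At the first CpG 83.7% of reads were methylated in Bull1 (625737 of 747650) and 79.8% in Bull2 (518009 of 649222), a difference of 3.90 points (Newcombe interval 3.78 to 4.03). At the second CpG it was 4.04 points (3.91 to 4.16). Pairs 3 to 50 bp apart differed by 4.09 points (4.08 to 4.11) at either CpG, above the interval of the members at the first CpG and within it at the second. By unweighted pair levels, the difference of the members minus that of these pairs was -0.0034 points, with an interval over pairs of -0.112 to 0.106. The mean difference of the members in pair level ranged from 3.14 points on chromosome 25 to 4.94 on chromosome 9. At the first CpG alone, the difference was 1.67 points where the second CpG was at 20% or below. It was 4.50 where the second was between 20 and 80%, and 3.97 where the second was at 80% or above. Pairs 3 to 50 bp apart were close to this, with 1.83, 4.58 and 3.99 points. Bull1 was higher at the first CpG of 60.4% of members, lower at 32.3% and equal at 7.31%. Among pairs 3 to 50 bp apart these shares were 61.7%, 32.6% and 5.65%. Both CpGs were higher in Bull1 in 16087 members (46.5%), both lower in 6352 (18.4%), and in 8066 (23.3%) they went opposite ways, against 44.2%, 15.9% and 29.8% of comparison pairs. For pairs 3 to 10 bp apart the shares were 46.6%, 17.8% and 25.2%. A read over both CpGs counts at both, and its part in these shares was not tested.

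Of the 69200 CpGs in members, 0 were called between the libraries by a two-sided Fisher exact test with Benjamini-Hochberg adjustment over all 23978882 tested sites at a false discovery rate of 0.05, where 0.000342% of all sites were called. The study, by a Fisher exact test at the same coverage minimum and false discovery rate, reported far more called cytosines genome-wide. The reason for this gap was not tested. The smallest exact p among member sites was 8.30e-05, with an adjusted p of 1. At an unadjusted p of at most 0.05, 2051 member sites (2.96%) were higher in Bull1 against a background of 2.53% of all sites, and 170 (0.246%) were lower against a background of 0.346%. Among the CpGs of pairs 3 to 50 bp apart the shares were 3.15% and 0.319%, both above those of the members. Those pairs were covered more deeply than the members, and the part of coverage in these shares was not tested. The member sites that passed lay in 1918 members, and in 303 of these both CpGs passed, 296 higher and 7 lower in Bull1, with 0 in opposite directions. The 303 were 15.8% of the 1918, against 8.86% of pairs 3 to 50 bp apart and 13.4% of pairs 3 to 10 bp apart with any CpG that passed. Both CpGs were at least 30 points higher in Bull1 in 211 members (0.610%) and at least 30 points lower in 25 (0.0723%), against backgrounds of 0.339% and 0.0488% of all isolated pairs 2 to 50 bp apart. For pairs 3 to 10 bp apart these shares were 0.506% and 0.0646%. Reads over both CpGs count at both, and their part in these shares was not tested.

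Among the named pairs higher in Bull1, the first lay on chromosome 12 at 19956947 and 19956949, where 23 of 23 reads were methylated at both CpGs in Bull1 and 19 of 30 and 18 of 30 in Bull2 (Fisher exact test, unadjusted p = 0.00118 and 0.000481). On chromosome 3 at 43780177 and 43780179, Bull1 had 40 of 41 and 39 of 41 reads methylated and Bull2 19 of 30 and 18 of 29. The other named gains lay on chromosome 10 at 793880, chromosome 4 at 14949988 and chromosome 16 at 34022680, with differences of 31.4 to 40 points. The chromosome 16 pair also differed within itself, with 12 of 20 against 19 of 20 reads in Bull1 and 4 of 20 against 14 of 22 in Bull2. The named pair with the largest loss in Bull1 by the smaller of the differences at its CpGs, on chromosome 4 at 79255251 and 79255253, had 12 of 37 and 17 of 37 reads methylated in Bull1 and 17 of 26 and 20 of 26 in Bull2 (Fisher exact test, unadjusted p = 0.0119 and 0.0195). Its nearest other CpG, 92 bp away, was at 4.17% in Bull1 and 5% in Bull2. The other named losses, on chromosome 4 at 10114476 and 104910915, chromosome 18 at 63347417 and chromosome 21 at 32731714, ranged from -23.8 to -33.3 points. The pair at 104910915 did not pass an unadjusted p of 0.05 at either CpG, and the pair on chromosome 18 did so at the second CpG only. All of these pairs were picked as the extremes of many, their adjusted p was 1, and no difference at a single member was called at this depth.

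The members were spread over all 29 autosomes, from 699 on chromosome 28 to 1893 on chromosome 1. Their mean level was lowest on chromosome 28, 81.8% in Bull1 and 77.5% in Bull2, and highest on chromosome 11, 85.7% and 81.7%. The unmethylated share was lowest on chromosome 29, 1.07% and 1.20%, and highest on chromosome 18 in Bull1 (4.04%) and chromosome 19 in Bull2 (4.20%). The mean difference within the pair was smallest on chromosome 19, 8.83 and 8.95 points, and largest on chromosome 28, 11.7 and 12.0 points. Chromosomes 19 and 28 were also the extremes of the shared difference, with mean products of 242 and 535 squared points.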

How the data were processed

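Sperm DNA of the twin bulls was profiled by WGBS, 1 library each, grouped by the bull named in the labels. Per the methods of the study, reads of low quality were dropped, the others were mapped to the bovine build UMD3.1 by Bismark with Bowtie2, and duplicates were removed. The submitters' processing notes list FastQC 0.11.2, Trim Galore 0.4.0 and version 0.14.5 beside Bowtie2. The deposited files gave counts of methylated and unmethylated reads per CpG, not normalized, and the methylation level as a fraction that the authors computed from them. Counts added up at every site. The files do not state whether positions count from 0 or 1, or whether strands were summed.

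Levels, intervals and tests were computed from the counts with Python 3.11.15, numpy 2.4.6, scipy 1.17.1 and numba 0.67.0, and the code was tested on simulated data. Autosomal pairs were used, with at least 5 reads at each CpG. Shares were compared by Newcombe intervals and means by normal intervals over pairs, single shares carry exact Clopper-Pearson intervals, and sites were tested by Fisher exact tests. A read over both CpGs was counted at both. Intervals on reads cover counting error only. Total reads at listed sites were 544424736 in Bull1 and 499287038 in Bull2.

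Named pairs were those with the highest smallest coverage (the lowest of the coverages of their CpGs in both libraries) and no methylated or no unmethylated read (3 each), the largest difference shared by both libraries (5), and the largest difference between bulls (5 per direction, ranked by the smaller of the differences of their CpGs). The members and tests were chosen with earlier results of these data known. The split and 35 to 65% classes, the order of the CpGs and the comparison with pairs 3 bp apart were added after these data were seen. Alternatives were coverage limits, an isolation of 100 bp, other comparison distances, other thresholds, summed reads and Bull1 thinned to the depth of Bull2. Sequence and annotation of UMD3.1 were not used here.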

Additional observations from a re-analysis of the deposited data

Results flagged for a closer look

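The difference between members and pairs 3 to 50 bp apart in the mean absolute difference within the pair was itself different between the libraries. It was -0.768 points in Bull1 and -1.22 in Bull2, and the Bull1 value minus the Bull2 value was 0.454 points, with an interval over pairs of 0.356 to 0.551. With at least 20 reads at every CpG the values were closer to each other, at -0.527 in Bull1 and -0.706 in Bull2. With Bull1 thinned to the depth of Bull2 the Bull1 value was -0.678. Read sampling adds to this measure, and its part in the gap between the libraries was not tested.

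Isolated pairs 2 bp apart on X, which the comparisons above did not use, had mean levels of 79.7% in Bull1 and 75.8% in Bull2 over 1236 pairs with the same coverage minimum. Comparison pairs on X were at 77.4% and 73.9%.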

How the results depend on the processing

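Across 99 recomputed values, 70 kept their direction and side of the threshold or, for counts of sites, stayed at or near the main count. The difference in mean level between members and pairs 3 to 50 bp apart was positive in Bull1 and Bull2 with at least 10 reads (0.127 and 0.122 points), at least 20 reads (0.782 and 0.647), an isolation of 100 bp (0.362 and 0.303), summed reads (0.213 and 0.336) and against pairs 3 bp apart (0.647 and 0.725). It was negative with an interval without 0 under the coverage maximum (-0.2404 and -0.237) and against pairs 3 to 10 bp apart (-0.577 and -0.489). The mean absolute difference within the pair became larger in members against pairs 3 to 10 bp apart (0.315 and 0.142 points) and among pairs at 20 to 80% in the other library (1.10 and 1.49), and in Bull2 its interval included 0 against pairs 3 bp apart (-0.152). The excess of members at least 30 points apart in Bull1 had an interval including 0 against pairs 3 bp apart (0.233). In Bull2 its interval was above 0 with at least 10 reads (0.528), at least 20 reads (1.20), an isolation of 100 bp (0.717), pairs 3 to 10 bp apart (1.19), 3 bp apart (0.506), pairs at 20 to 80% (3.14) and 50 points (0.585). The mean of first minus second in Bull2 with at least 20 reads was -0.258 with an interval including 0. Both CpGs at least 30 points apart between the bulls in 1 direction gave 472 sites, in place of 0 adjusted calls, since this rule uses no test. The causes of the other shifts were not tested. The excess of unmethylated members, the shared difference and the difference between the bulls kept their side under every alternative run for them, although the shared difference rose from 36.6 squared points to 51.8 with at least 20 reads, 54.6 against pairs 3 to 10 bp apart and 230.4 among pairs at 20 to 80%, and the smallest unmethylated excess was 0.218 points in Bull2 with at least 20 reads. No paired analysis was possible because the design has 1 library per bull.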

Other observations

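On X, of which a bull carries a single copy, 9 of the 1236 isolated pairs 2 bp apart (0.728%, exact interval 0.333 to 1.38%) had 1 CpG at 35 to 65% and the other at 80% or above in both libraries, and 16 (1.29%) were split in both. The autosomal shares were 2.40% and 1.97%. Among pairs 3 to 50 bp apart on X the shares were 0.764% and 0.990%. Mean coverage at the first CpG of the X pairs was 14.9 reads in Bull1 and 12.9 in Bull2, lower than on the autosomes, and its part in these shares was not tested.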
